A study of Mus musculus with 42 samples.

Results

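The genes of cholesterol, steroid and fatty acid synthesis were followed by gene symbol through an expression table of mouse embryos whose fathers had been given a plasticizer. Of 35 listed genes, 34 stood among the 12988 genes of the table, and all 34 passed the filter on low values (1 CPM or more in at least 2 libraries). Star, which carries cholesterol into mitochondria, was not analysed here. The 34 genes comprise 7 enzymes of the mevalonate pathway, 11 enzymes from squalene to cholesterol, 4 genes of sterol sensing, 3 of sterol transport, 8 of fatty acid synthesis and 1 of bile acid synthesis. C57BL/6J males received vehicle (control), 2.5 mg/kg/day (low) or 25 mg/kg/day (high) of the phthalate plasticizer DEHP for 67 days from the age of 8 weeks, and then sired offspring with females that received none. The conceptuses were taken at E7.5, the stage of gastrulation, and are labelled as wild-type males from a cross of C57BL/6 with DBA/2J. Expression was read in 6 libraries (2 in each group) in CPM (reads scaled to a common library total) and methylation by reduced representation bisulfite sequencing in 9 libraries (3 in each group). The columns are named by treatment and library number and do not show the tissue, which per the labels could be embryonic or extra-embryonic and, for methylation, sperm. Nothing says that the libraries came from separate fathers or litters, so p-values measure only the spread between these libraries.

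Cholesterol is built from acetyl-CoA through mevalonate, isoprenoids, squalene and lanosterol, and the enzymes of this route are switched on together when membranes run short of sterol. The sensor is SCAP, which escorts the transcription factors SREBP-1 and SREBP-2 out of the endoplasmic reticulum, where INSIG proteins hold them back in sterol-rich cells; SREBP-1 acts mainly on fatty acid synthesis. In the embryo, cholesterol is needed for the maturation of Hedgehog proteins, and the visceral endoderm passes lipid on to the epiblast before a placenta has formed.

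The 250 bases before the start of 5 of these genes are shown because they hold letters of the elements known to control the route and lie under the tiles in which methylation is given further on. They are RefSeq sequences of GRCm38.p6, printed 5′ to 3′ on the strand of the gene. Capitals mark matches, on either strand, to 4 motifs: a sterol regulatory element core (TCACNCCAC), the NF-Y box (CCAAT), an E-box (CACGTG) and the GC box (GGGCGG). Hmgcs1 (chr13:119690101-119690350), Srebf2 (chr15:82147019-82147268) and Insig1 (chr5:28071162-28071411) lie on the plus strand. Fasn (chr11:120824548-120824797) and Abca1 (chr4:53159896-53160145) lie on the minus strand.
Hmgcs1: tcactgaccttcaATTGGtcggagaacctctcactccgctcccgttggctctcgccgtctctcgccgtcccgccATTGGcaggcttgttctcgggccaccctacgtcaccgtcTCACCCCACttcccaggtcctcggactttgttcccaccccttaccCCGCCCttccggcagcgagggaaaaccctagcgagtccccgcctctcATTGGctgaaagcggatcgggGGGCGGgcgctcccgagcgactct
Srebf2: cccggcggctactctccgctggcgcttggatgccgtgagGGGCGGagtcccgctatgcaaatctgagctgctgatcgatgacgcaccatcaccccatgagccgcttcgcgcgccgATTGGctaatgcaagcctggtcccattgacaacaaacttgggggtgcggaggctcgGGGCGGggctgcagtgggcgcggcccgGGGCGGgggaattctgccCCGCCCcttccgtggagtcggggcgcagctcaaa
Insig1: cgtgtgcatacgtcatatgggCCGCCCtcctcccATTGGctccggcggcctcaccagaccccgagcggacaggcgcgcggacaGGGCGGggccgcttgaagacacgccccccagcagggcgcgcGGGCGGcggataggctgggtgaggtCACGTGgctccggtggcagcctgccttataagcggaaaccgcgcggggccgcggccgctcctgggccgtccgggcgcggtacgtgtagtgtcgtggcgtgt
Fasn: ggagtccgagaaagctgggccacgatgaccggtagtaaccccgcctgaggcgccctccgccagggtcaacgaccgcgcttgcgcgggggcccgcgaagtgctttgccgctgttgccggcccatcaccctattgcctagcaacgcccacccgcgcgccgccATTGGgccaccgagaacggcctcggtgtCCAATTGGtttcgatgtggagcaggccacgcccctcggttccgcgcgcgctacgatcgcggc
Abca1: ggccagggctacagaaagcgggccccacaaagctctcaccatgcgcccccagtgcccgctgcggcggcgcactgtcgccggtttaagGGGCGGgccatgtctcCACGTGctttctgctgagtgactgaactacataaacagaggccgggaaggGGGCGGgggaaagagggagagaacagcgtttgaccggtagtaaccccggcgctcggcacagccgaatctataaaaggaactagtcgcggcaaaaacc
Hmgcs1 held the sterol regulatory element core from base -137 to -129 before its start, with 3 NF-Y boxes and 2 GC boxes around it. Srebf2 held 1 NF-Y box and 4 GC boxes. Insig1 held 1 NF-Y box, 1 E-box at -101 to -96 and 3 GC boxes. Fasn held 3 NF-Y boxes, of which 2 overlapped each other on opposite strands (CCAATTGG, -62 to -55). Abca1 held 1 E-box at -147 to -142 and 2 GC boxes. RefSeq had 32 such stretches for 26 of the 34 genes. The sterol element core stood in 1 of these (3.12%, Hmgcs1 alone) and in 1.05% of all 32851 promoters of the same length, the NF-Y box in 59.4% against 33.8%, the E-box in 18.8% against 6.02%, and the GC box in 75% against 32.7%. The background held all promoters and was not matched for base composition or expression, and the differences in share were not tested. Only exact letters were searched, so a gene without a match may still hold a variant of an element. A match describes letters in a window, not a bound site.

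Libraries differed in depth and in the markers they held. Read totals are not given in the sources used here; the steps between CPM values put the relative depth at 185 to 194 in the control and low libraries and at 153 and 161 in the high ones, in arbitrary units. The 15 visceral endoderm markers had a summed CPM between 1512 (control 2) and 3125 (high 2). The 10 epiblast markers summed to between 1856 (high 2) and 3074 (low 1), so markers of embryonic and of extra-embryonic cells were present in every library. Control 1 stood apart in 9 parietal endoderm markers, at a sum of 2151 CPM against 835 to 1342 in the others, and control 2 in the visceral endoderm, where the others held 2348 CPM or more. Low 1 stood apart in Cdh5, a cadherin of endothelium, at 42.3 CPM against 0.287 to 4.78, and in Prl3d1, a hormone of trophoblast giant cells, at 28.4 CPM against 0.364 to 9.72. Both were picked from lists of 8 blood and endothelium and 12 trophoblast markers, in which other members went the other way. Tal1 of the first list was lowest in low 1, at 1.95 CPM against 3.09 to 9.15, and Cdx2 of the second at 13.3 CPM against 29.6 to 52.6. The list sums in low 1 were 114 CPM against 46.6 to 83.4, and 716 CPM against 623 to 695. In bulk samples, fewer cells of a type and less RNA per cell cannot be told apart.

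No gene of sterol or fatty acid synthesis differed between groups past the test, and for 33 of the 34 the 95% interval of every difference lay inside 1.5-fold. Differences and the 1.5-fold bound are on the scale of log2(CPM + 1), which understates changes of low genes. Differences were tested with limma, with Benjamini-Hochberg adjustment over 12987 genes, and a gene was called at an adjusted p under 0.05. For low against control, 0 of the 34 were called, beside 0% of all genes, and 2 of the 34, Abca1 and Hmgcs1, had an unadjusted p under 0.05, beside 4.87% of all genes. For high against control, 0 of the 34 were called, beside 0.0077% of all genes (1 gene, Gm23935, a predicted gene named only because it was the one called), and 0 had an unadjusted p under 0.05, beside 5.29%. For high against low, 0 of the 34 were called, beside 0% of all genes, and 1, Abca1, had an unadjusted p under 0.05, beside 7.91%. The lowest adjusted p from limma among the 34 was 0.928, 0.866 and 0.439 in the same order.

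The median difference of the 34 genes was -0.02 for low against control, 0.01 for high against control and 0.03 for high against low, beside 0.00, 0.02 and 0.01 over all genes tested. Positive and negative differences were split 13 to 21, 18 to 16 and 21 to 13. For low against control, 12 of the 34 genes had groups that did not overlap (4 higher, 8 lower), beside 35.2% of all genes (18% higher, 17.2% lower). For high against control it was 8 of 34 (5 higher, 3 lower), beside 35.6% (23.5% higher, 12.1% lower), and for high against low 11 of 34, all higher in the high libraries, beside 33.6% (21.8% higher, 11.8% lower). Over both directions these shares were near or below the background, while 2 of the directional shares (lower for low against control, higher for high against low) lay above it; these were not tested. The intervals were narrow: their median half-width was 0.18 for the 34 genes and 0.21 for all genes, and 33 of 34 genes (97.1%) had an interval within 1.5-fold in each comparison, beside 92.7%, 92.2% and 90.3% of all genes. The 3 comparisons share libraries pairwise, so their values are given side by side and not set against each other.

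**Figure D1:**
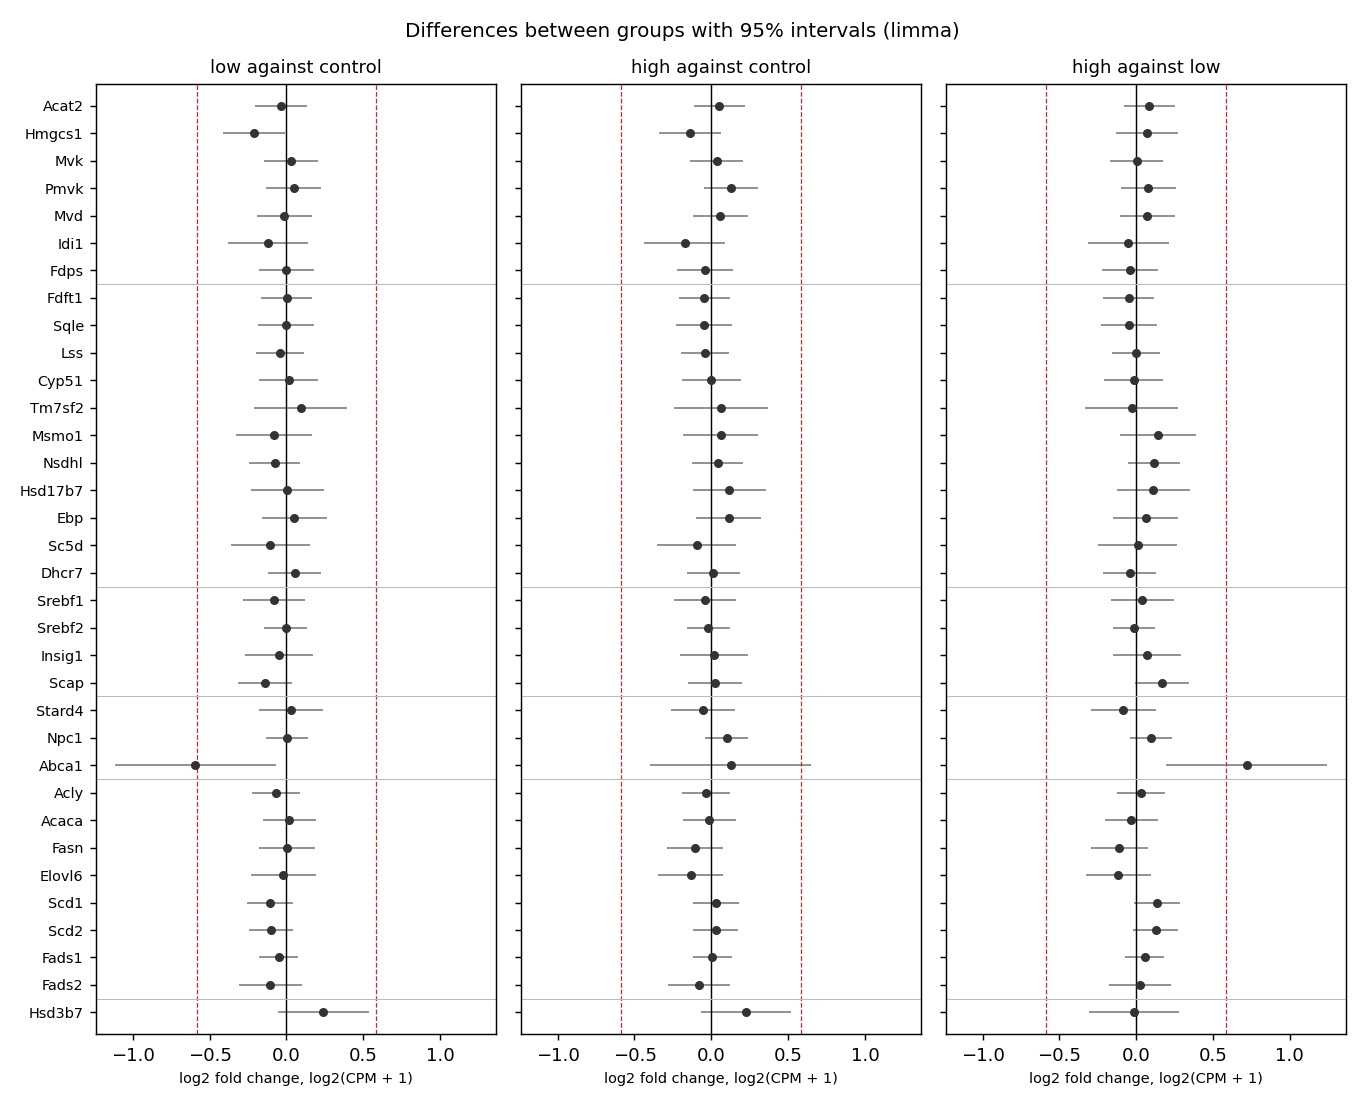
Log2 fold change (x axis, log2(CPM + 1) scale) of each of the 34 genes in the 3 comparisons, with its 95% limma interval as a horizontal bar and 1.5-fold in either direction as dashed lines; thin lines separate the pathway steps. Abca1 is the one gene whose intervals pass the dashed lines.

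The mevalonate pathway, which turns acetyl-CoA into isoprenoid units, showed no difference past the test, and in none of its 7 genes did the highest and the lowest library differ by more than 1.30-fold. Hmgcs1 (chr13:119690379-119708260), an early synthase of the pathway and the gene with the sterol element core shown above, stood at 77.4 and 89.0 CPM in the controls, 72.7 and 70.5 in the low libraries and 70.9 and 79.9 in the high ones. Both low libraries lay below both controls, while the high libraries overlapped the controls, and the highest value was that of control 2. The low group was 1.16-fold lower than the controls (log2 fold change -0.21, SE 0.09, 95% interval -0.41 to -0.01, unadjusted p = 0.0419, adjusted p = 0.928 by limma), and the difference was -0.11 without control 2. For high against control it was -0.14 (interval -0.34 to 0.06, adjusted p = 0.866 by limma), -0.040 without control 2 and -0.24 without control 1. Idi1, which interconverts the isoprenoid units, stood at 34.7 and 41.6, 38.1 and 31.9, and 32.4 and 34.8 CPM in the control, low and high libraries. All 3 of its groups overlapped, and its high-against-control difference of -0.17 had an interval from -0.44 to 0.09 and was -0.045 without control 2 and -0.30 without control 1.

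Pmvk, the kinase that turns phosphomevalonate into its diphosphate, had the steadiest order of the pathway, at 12.3 and 12.4 CPM in the controls, 12.6 and 13.04 in the low libraries and 13.6 in both high ones. No library of a group crossed into another group, yet the step was small: 0.05 for low against control and 0.13 for high against control (interval -0.05 to 0.30, adjusted p = 0.866 by limma). Mvk, the kinase acting before it, ranged from 16.03 to 17.02 CPM and had the smallest ratio of highest to lowest library of all 34 genes, 1.06. Mvd, the decarboxylase, ranged from 15.8 to 17.4 CPM, Acat2, the thiolase of the cytosol, from 41.9 to 46.9 CPM, and Fdps, which joins the isoprenoid units into farnesyl diphosphate, from 40.8 to 46.7 CPM. Acat2 and Mvd were higher in both high libraries than in both low ones, by 0.09 and 0.07, and neither differed past the test.

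No group difference passed the test among the 11 enzymes from squalene to cholesterol. Their median difference was 0.00 for low against control, 0.01 for high against control and 0.00 for high against low. Sqle, the epoxidase that makes the first oxygenated intermediate and is a main point of control, stood at 44.1 and 49.5 CPM in the controls, 48.5 and 45.0 in the low libraries and 43.7 and 46.7 in the high ones. The groups overlapped, with differences of 0.00 (interval -0.18 to 0.18) for low and -0.05 (interval -0.23 to 0.14) for high against control. Fdft1, which makes squalene, was at 32.5 and 32.8 CPM in the controls and at 31.4 and 31.8 in the high libraries. It lay lower in both high libraries, with a difference of -0.05, smaller than the spread of the low libraries, 34.5 and 30.9997 CPM.

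Lss, which closes the sterol ring system, ranged from 28.2 to 30.7 CPM, and Cyp51, which removes a methyl group from lanosterol, from 26.4 to 30.5 CPM. Among the later steps, Nsdhl (17.9 to 20.3 CPM), a dehydrogenase of the demethylation complex, was lower in both low libraries than in any other library, with a difference of -0.08 from the controls, and high against low was 0.12. Ebp, the isomerase that moves a double bond of the sterol ring, stood at 14.2 and 12.7 CPM in the controls, 13.3 and 14.7 in the low libraries and 14.6 in both high ones. Its high libraries lay above both controls, by 0.11 (interval -0.10 to 0.32, adjusted p = 0.873 by limma). Dhcr7, the last reductase of the route, ranged from 20.98 to 23.4 CPM, with differences of 0.06 and 0.01 from the controls. Tm7sf2, a sterol reductase, had the widest interval of the 11 genes, at 3.81 and 4.96 CPM in the controls, 4.37 and 5.07 in the low libraries and 4.59 in both high ones. Hsd17b7, a ketosteroid reductase of the same complex, was higher in both high libraries than in both low ones by 0.11, whereas Msmo1 (11.8 to 14.7 CPM) and Sc5d (9.61 to 11.95 CPM) overlapped in every comparison.

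**Figure D2:**
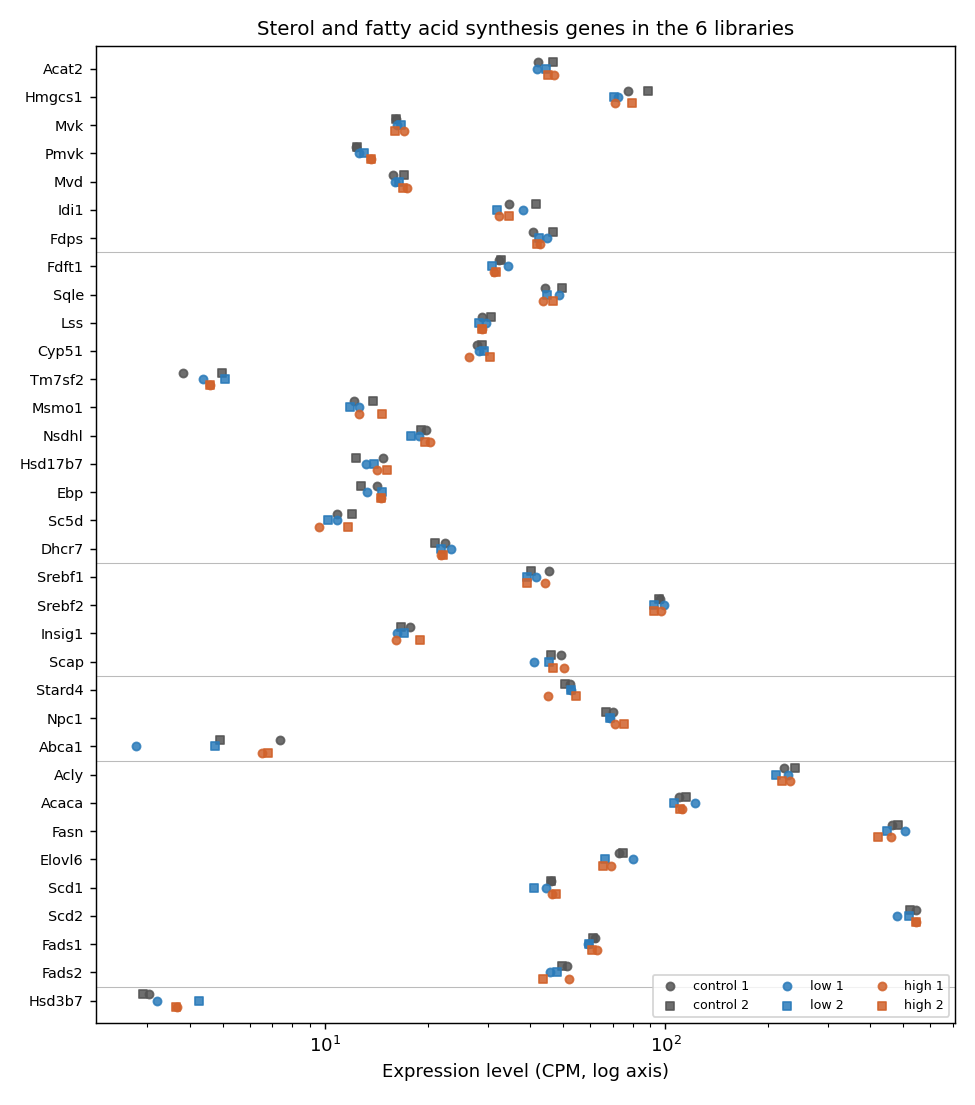
Expression level (CPM, log axis) of each of the 34 genes in the 6 libraries, with circles for libraries numbered 1, squares for those numbered 2, and colour for the group; levels are not scaled by gene length, so rows are to be read one at a time. In every row but that of Abca1 the 6 points lie within 1.46-fold of each other.

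Sterol sensing showed no group difference past the test in any of its 4 genes. Srebf2, which encodes the main activator of the cholesterol route, was at 96.5 and 95.6 CPM in the controls, 99.2 and 92.3 in the low libraries and 96.9 and 92.6 in the high ones. Groups overlapped, and both intervals against the controls were narrow, from -0.14 to 0.13 for low and from -0.16 to 0.12 for high. Srebf1 stood at 45.5 and 40.2, 41.6 and 39.3, and 44.1 and 39.2 CPM, so that within each group the library numbered 1 was the higher, and the groups overlapped. Insig1, the anchor whose own gene is a target of SREBP-2, ranged from 16.1 CPM (high 1) to 18.99 CPM (high 2), and the 2 high libraries enclosed all the others.

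Scap was at 49.4 and 46.1 CPM in the controls, 41.1 and 45.4 in the low libraries and 50.4 and 46.9 in the high ones. Both low libraries lay below the other 4, with low 1 the lowest. The difference was -0.14 for low against control (interval -0.31 to 0.04, adjusted p = 0.928 by limma) and 0.17 for high against low (interval -0.01 to 0.34, unadjusted p = 0.0614, adjusted p = 0.686 by limma).

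Sterol transport held the one gene of the 34 that varied widely. Abca1 (chr4:53030787-53159895) encodes the pump that loads cellular cholesterol onto apolipoprotein A-I and is induced by oxysterols through the LXR receptors. It stood at 7.37 and 4.90 CPM in the controls, 2.77 and 4.74 in the low libraries and 6.52 and 6.81 in the high ones. Both low libraries lay below the other 4, but low 2 was close to control 2, and the ratio of the highest to the lowest library, 2.66, was that of control 1 to low 1. The low group was 1.51-fold lower than the controls on this scale (log2 fold change -0.59, SE 0.22, interval -1.12 to -0.07, unadjusted p = 0.0314, adjusted p = 0.928 by limma) and the high group 1.65-fold higher than the low group (0.72, interval 0.20 to 1.24, unadjusted p = 0.0137, adjusted p = 0.439 by limma). At these low levels the size depended on the pseudocount: the 2 differences were -0.71 and 0.86 with 0.1 in place of 1, and -0.35 and 0.42 with 5.

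The Abca1 values turned on single libraries. Without low 1, the library that stood apart in Cdh5 and Prl3d1, the differences were -0.29 against control and 0.42 for high against low (adjusted p = 0.9998 and 0.99996 by limma). Without low 2, high against low was 1.024, with an adjusted p of 0.0467 by limma, and Abca1 was then one of 291 genes called. High against control was 0.13 (interval -0.40 to 0.65), and it was -0.13 without control 2 and 0.38 without control 1. The sum of the 9 parietal endoderm markers, all of them in the table, also moved with Abca1: it was 2151 and 844 CPM in the controls, 835 and 857 in the low libraries and 1342 and 1289 in the high ones. Plat, 1 of the 9 and named after its values were seen, stood at 8.63 and 4.78, 2.30 and 4.30, and 8.36 and 7.44 CPM. As for Abca1, control 1 and the high libraries were high, and control 2 and the low libraries low. Not all of the 9 markers kept this order. Thbd was highest in low 1, where Abca1 was lowest, at 12.85 CPM against 1.08 to 8.16 in the other libraries. Srgn in low 1, at 6.199 CPM, lay above both high libraries (5.54 and 5.34 CPM). The part of these markers and of those of low 1 in the Abca1 values was not tested. Abcg1, a related sterol pump, was highest in control 2 and low 1 (5.09 and 4.90 CPM). Of the LXR receptors, Nr1h2 ranged from 34.1 to 37.6 CPM and Nr1h3 from 1.42 CPM (control 2) to 2.02 CPM (high 2).

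Npc1, which releases cholesterol from lysosomes, was at 70.2 and 66.8 CPM in the controls, 68.5 and 68.7 in the low libraries and 71.2 and 75.7 in the high ones. Both high libraries lay above the other 4, by 0.10 against the controls (interval -0.04 to 0.24, adjusted p = 0.866 by limma). For Stard4, a soluble sterol carrier, the high libraries (45.2 and 54.7 CPM) enclosed the values of all the others (50.8 to 52.8 CPM).

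**Figure D3:**
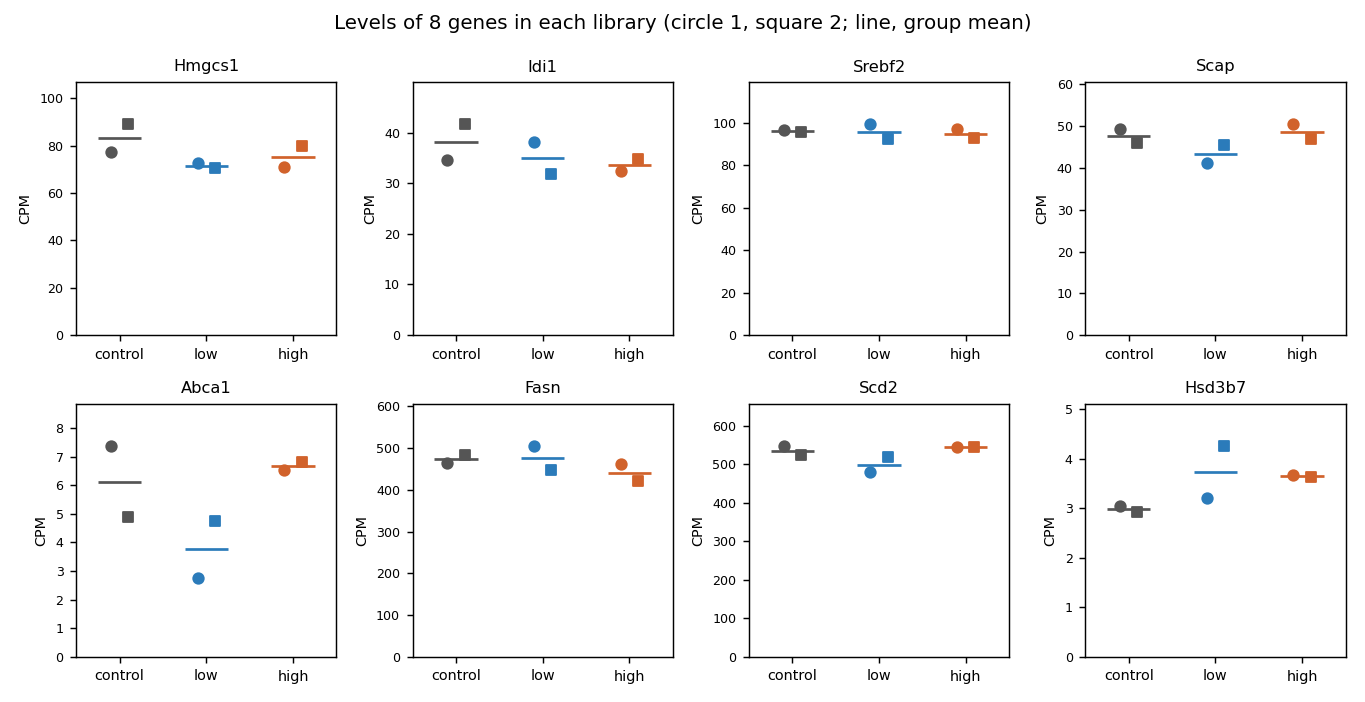
CPM (y axis, from 0) of 8 of the genes in the control, low and high libraries, with circles for libraries numbered 1, squares for those numbered 2 and a line at the group mean. Low libraries lie lowest for Scap, Abca1 and Scd2, whereas the groups overlap for Idi1 and Srebf2.

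No difference among the 8 genes of fatty acid synthesis passed the test. The 4 desaturases lay lower in both low libraries than in both controls, as did 17.2% of all genes. Their adjusted p for low against control was 0.928 or more by limma, and the shared direction was not tested. Scd1, which puts a double bond into stearate and palmitate, was at 46.0 CPM in both controls, 44.6 and 40.98 in the low libraries and 46.3 and 47.7 in the high ones. Scd2, the form typical of embryonic tissue, was at 546 and 522 CPM in the controls, 479 and 518 in the low libraries and 545 and 544 in the high ones. Both genes lay lowest in the 2 low libraries, with differences of -0.10 each from the controls, and high against low was 0.13 for each (adjusted p = 0.721 and 0.735 by limma). Scd1 and Scd2 are neighbouring copies of one ancestral gene, and reads shared between them could be split either way. Fads1 (59.2 to 62.9 CPM) and Fads2 (43.6 to 51.9 CPM), the desaturases of polyunsaturated fatty acids, differed from the controls by -0.05 and -0.10 in the low group, and high 2 was the lowest of all in Fads2.

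Fasn and Elovl6 lay lower in both high libraries than in both controls, and the high and low libraries overlapped. Fasn (chr11:120805846-120824547), the synthase itself, stood at 464 and 483 CPM in the controls, 504 and 447 in the low libraries and 461 and 420.003 in the high ones. High against control was -0.10 (interval -0.29 to 0.08, adjusted p = 0.870 by limma; -0.17 to -0.037 when 1 library was left out), while the 2 low libraries were the highest of all and the second lowest. Elovl6, which elongates palmitate, followed the same order, at 72.9 and 75.2, 80.4 and 66.4, and 69.1 and 65.6 CPM, with a high-against-control difference of -0.13 (interval -0.35 to 0.08, adjusted p = 0.866 by limma). Acaca, which makes malonyl-CoA, ranged from 106 to 122 CPM and Acly, which supplies acetyl-CoA from citrate, from 211 to 239.6 CPM, and both overlapped in every comparison.

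Hsd3b7, which isomerizes the sterol ring on the way to bile acids, was the one steroid gene among the 34. It was low, at 3.04 and 2.92 CPM in the controls, 3.21 and 4.25 in the low libraries and 3.67 and 3.64 in the high ones. All 4 libraries of exposed fathers lay above both controls, by 0.24 for low (interval -0.05 to 0.53, unadjusted p = 0.0960, adjusted p = 0.928 by limma) and by 0.23 for high (interval -0.07 to 0.52, unadjusted p = 0.114, adjusted p = 0.866 by limma). The value for low was 0.081 without low 2, whose 4.25 CPM was the highest of the 6.

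In most of the 34 genes, libraries of one group differed more from each other than the group means did. The largest difference between group means exceeded the largest difference within a pair in 9 of the 34 genes (26.5%; 26.6% of all genes), namely Hmgcs1, Pmvk, Nsdhl, Scap, Npc1, Abca1, Scd1, Scd2 and Fads1. Control 2 was higher than control 1 in all 7 mevalonate genes, by a median of 0.14, and in 14 of the 18 sterol synthesis enzymes, whereas 51.3% of all genes were higher in control 2. It was lower than control 1 in all 4 sensing genes and all 3 transport genes. High 2 was higher than high 1 in 9 of the 11 enzymes from squalene to cholesterol and lower in 7 of the 8 fatty acid genes. Low 2 held the lowest value of the 6 libraries in 10 of the 34 genes (29.4%), where it did so for 13.3% of all genes, and control 2 the highest value in 6 of the 18 sterol enzymes (33.3%; 17% of all genes).

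Summed over the 7 mevalonate genes, the controls stood at 239 and 269 CPM, the low libraries at 242 and 236 and the high ones at 241 and 248, so control 2 was above every other library. Summed over the 11 later enzymes they lay between 228 and 241 CPM, over the 4 sensing genes between 194 and 209 CPM and over the 8 fatty acid genes between 1498 and 1592 CPM, in each case with overlapping groups except that both low sums lay below both controls in sensing and in fatty acids. Control 2, with the highest mevalonate sum, had the lowest sum of visceral endoderm markers (1512 CPM) and the second highest of epiblast markers (2760.4 CPM). High 2, with the highest visceral endoderm and lowest epiblast sums, had the second highest mevalonate sum and the highest of the later enzymes. The part of cell makeup in these sums was not tested.

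**Figure D4:**
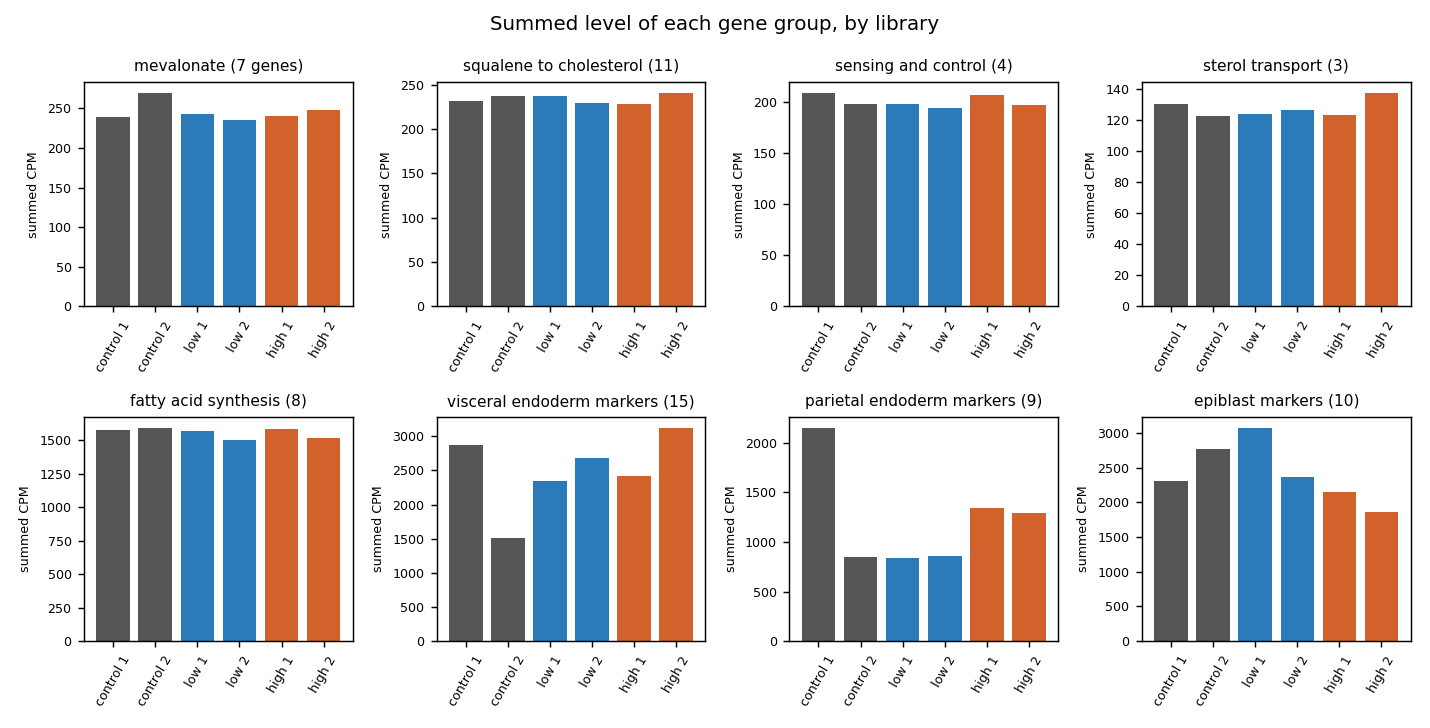
Summed CPM (y axis, from 0) of 5 gene groups of the pathway and of 3 marker lists in each of the 6 libraries, coloured by group. The pathway sums differ by at most 1.14-fold between libraries, while the endoderm markers differ by 2.07-fold (visceral) and 2.58-fold (parietal).

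Another 64 genes of the same routes held no called difference either. None of them was called in any comparison, and the medians were 0.04 for low against control, 0.04 for high against control and 0.02 for high against low. An unadjusted p under 0.05 was found for 2, 3 and 2 of them, beside 4.87%, 5.29% and 7.91% of all genes. Lrp2, an endocytic receptor of the visceral endoderm that takes up lipoproteins, stood at 127 and 94.0 CPM in the controls, 105 and 110.3 in the low libraries and 131 and 169 in the high ones. Both high libraries lay above all the others, by 0.44 against the controls and 0.46 against the low group (adjusted p = 0.866 and 0.468 by limma). Against the controls the value was 0.22 without control 2, 0.26 without high 2 and 0.65 without control 1, and against the low group 0.28 without high 2. The visceral endoderm markers, to which the same cells contribute, summed to 2880.0 and 1512 CPM in the controls, 2348 and 2683 in the low libraries and 2422 and 3125 in the high ones, and their part in the Lrp2 values was not tested.

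Acat1, the mitochondrial thiolase, was at 10.8 and 9.30 CPM in the controls and 11.7 and 13.6 in the high libraries (0.30, adjusted p = 0.866 by limma). Mbtps2, a protease that releases SREBP from the Golgi membrane, was at 18.2 and 19.4 CPM in the controls and lower in the 4 libraries of exposed fathers, at 17.4 and 14.6 in the low and 14.5 and 16.5 in the high group (-0.23 and -0.27, adjusted p = 0.928 and 0.866 by limma). Mylip, which marks the LDL receptor for degradation, was at 11.1 and 11.2 CPM in the controls and between 12.1 and 13.2 CPM in the 4 others. Hsd17b12, a reductase of chain elongation, was at 69.4 and 71.3 CPM in the controls and 80.2 and 75.8 in the low libraries (0.15, adjusted p = 0.928 by limma). Cyp7b1, an oxysterol hydroxylase of bile acid synthesis, was near the filter, at 1.134 and 1.147 CPM in the controls, 0.775 and 0.814 in the low libraries and 1.09 and 1.21 in the high ones. Lpin1, a phosphatidate phosphatase, was highest in the controls, at 9.78 and 9.13 CPM, and ranged from 7.37 to 8.84 CPM in the 4 others (-0.15 and -0.23). The enzymes that open steroid hormone synthesis, Cyp11a1, Cyp17a1 and Hsd3b1, were not analysed here.

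Around the starts of these genes DNA was little methylated in all 9 libraries, and no tile differed between groups past the test. The methylation table gives percent methylation in tiles of 100 bp, and 95 tiles from 1000 bp before to 500 bp after a start covered 21 of the 34 genes. Their median was 3.64%, beside 20.5% over all 141251 tiles, and 78 of the 95 lay under 10%. Averaged over the 95 tiles, the libraries stood at 5.70%, 5.82% and 5.17% (control), 5.12%, 5.01% and 4.97% (low) and 5.43%, 5.12% and 5.41% (high). All 3 low libraries lay below all 3 controls, with a difference of -0.531 points between the means (5.03 ± 0.0757 and 5.57 ± 0.346, SD, n = 3), and the high libraries overlapped the controls. Over all tiles of the table the library means lay between 35.2% and 36.3%. By limma over all tiles, 0 of the 95 were called in any comparison, beside 0% of all tiles, and 3, 3 and 2 had an unadjusted p under 0.05 for low against control, high against control and high against low, beside 5.49%, 4.44% and 4.71% of all tiles. Coverage is not given in the sources used here, so the counting error of a tile is unknown.

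The largest difference lay in the Fasn promoter. The tile chr11:120824601-120824700 covers bases -153 to -54 of the sequence shown above, with 10 CpGs and all 3 NF-Y boxes. It was methylated at 6.94%, 10.7% and 14.4% in the controls, 11.1%, 7.33% and 12.8% in the low libraries and 19.9%, 22.9% and 18.6% in the high ones. All 3 high libraries lay above the other 6, by 9.77 points against the controls (SE 2.29, interval 4.39 to 15.2, unadjusted p = 0.00352, adjusted p = 0.985 by limma) and by 10.1 points against the low group (unadjusted p = 0.00300, adjusted p = 0.872 by limma). Neither passed the test over all tiles, and the tile was singled out as the one with the lowest p among the higher tiles of these genes. The next tile upstream, chr11:120824701-120824800, was at 3.02 to 4.74% in the 9 libraries with overlapping groups, and the other 7 tiles of Fasn overlapped between the high libraries and the controls.

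In the Hmgcs1 promoter, the tile that holds the sterol element core (chr13:119690201-119690300) was at 10.2%, 9.73% and 6.11% in the controls, 1.09%, 0% and 7.78% in the low libraries and 7.77%, 0% and 10.1% in the high ones. The groups overlapped, and the high libraries alone ran from 0% to 10.1%. The 5 tiles around the Srebf2 start ranged from 0% to 9.57% and the 5 around the Insig1 start from 0% to 11.04%, with no group apart in the tiles on the sequences shown. Abca1, the gene with the widest spread of expression, had 5 tiles with means of 6.08%, 5.96% and 5.76% in the control, low and high groups.

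Elsewhere, a Mvd tile with its middle 471.5 bp after the start (chr8:122442901-122443000) was at 13.6%, 9.24% and 8.80% in the controls, 3.08%, 5.88% and 4.44% in the low libraries and 9.77%, 7.77% and 8.25% in the high ones. The low libraries lay below the other 6, with a difference of -6.07 points from the controls (unadjusted p = 0.00402, adjusted p = 0.753 by limma). A Dhcr7 tile with its middle at -416.5 bp (chr7:143822701-143822800) was at 16.3%, 15.3% and 13% in the controls and 1.52%, 13.04% and 8.66% in the low libraries, a difference of -7.14 points (adjusted p = 0.892 by limma), with low 1 the farthest from the controls. A Fads2 tile with its middle at -747.5 bp (chr19:10102201-10102300) was at 16.1%, 16.4% and 16.2% in the controls and 21.7%, 19.4% and 21.6% in the low libraries, which lay higher by 4.69 points (adjusted p = 0.910 by limma). In the 131 tiles farther inside the genes, the median was 69.1% and 0 were called. The expression and methylation tables carry no shared sample names, so the values of a gene in the 2 tables could not be joined by sample.

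**Figure D5:**
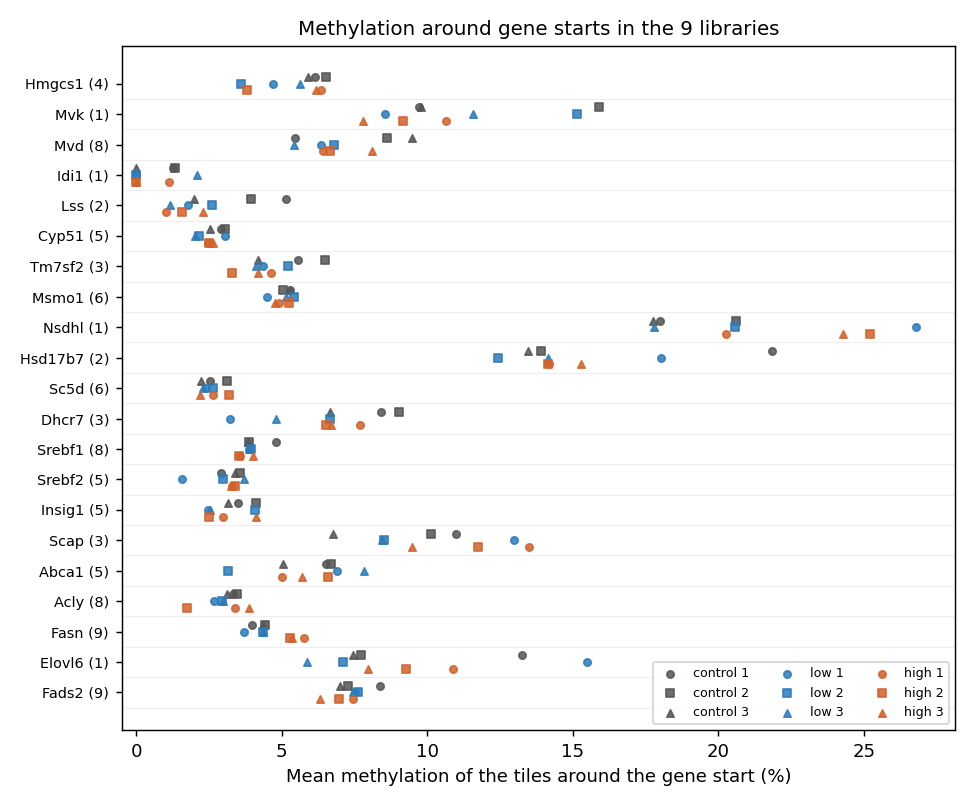
Mean methylation (x axis, percent) of the tiles around the start of 21 genes in the 9 libraries, with the number of tiles in brackets, colour for the group and marker shape for the library number. Fasn is the row in which the 3 high libraries lie above the other 6, and most rows lie under 10%. In the Fasn row, a mean of 9 tiles, only the tile at bases -153 to -54 had all high libraries above all controls.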

How the data were processed

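Libraries were grouped by treatment from their column names. Expression values are CPM as deposited by the authors, per the file headers; 3 lines that name no gene, 27.9 to 29.8% of the column sums, were left out. Methylation values are percent methylation per 100 bp tile as deposited by the authors, without coverage. TopHat, Bowtie 0.12.2, SAMtools and edgeR, Trim Galore, Bismark, Bowtie2, and methylKit, and the builds mm8 and mm10, are named without roles, per the submitters' processing notes. All 34 gene spans lay within 3 kb of GRCm38.p6. Tiles were placed on that build because 42022 lay within 500 bp of its gene starts (mean methylation 8.54%), against 1991 to 2989 around starts shifted by 100 to 3000 kb (means 33.7 to 37.7%).

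Log2(CPM + 1) of 12987 genes was fitted with limma 3.58.1 (R 4.3.3), using a mean-variance trend and 3 groups in 1 fit (3 residual degrees of freedom); this scale understates changes of low genes. Tiles were fitted likewise on percent methylation without a trend. Both fits were first run on simulated data with independent noise for each gene or tile. The simulated libraries had no shifts shared between genes, so these runs cannot show how the fits behave with such shifts. The planned count test was not run, because whole reads could not be recovered from most low CPM values. Other pseudocounts, filters, scalings and fits were tried.

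Members and lists were chosen with earlier results of these data known. Genes named are the 4 lowest p per direction and comparison (2 for other pathway genes) and 8 chosen for their role; the remaining members are given mostly by range. Abcg1, Nr1h2, Nr1h3, the Hmgcs1 tile and the single cell type markers named were added after their values were seen. Levels were not compared between genes, because CPM is not scaled by length.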

Additional observations from a re-analysis of the deposited data

How the results depend on the processing

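With other pseudocounts, filters, scalings, fits of the 2 compared groups alone and a narrower promoter window, no gene of the 34 and no promoter tile was called, and the signs of named genes and tiles held except Fasn for low against control (0.0045 as reported, -0.0038 with quantile normalization, -0.0020 with genes rescaled to one total) and Insig1 for high against control (-0.0098 with quantile normalization). Genes called over the whole table for high against control (1 as reported) were 2 with the 2 groups alone and 0 for limma without a trend; for high against low (0 as reported) they were 9 with the 2 groups alone and 1 at a mean of at least 10 CPM. A logit scale gave 1 tile for low against control and 1 for high against low, where 0 were called. The column number as a replicate block gave 0 genes for high against control and changed no other call; same-numbered libraries did not deviate together (correlations from -0.073 to 0.090 in expression and -0.033 to 0.029 in methylation, where 2 of 9 libraries correlated best with their own number), so the numbers were not used as a pairing.

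Leaving out 1 library moved the genes called to between 0 and 65 for low against control (65 without low 2, 10 without control 2), 0 and 2 for high against control, and, comparing high with low, 0 and 291 (291 without low 2, 9 without either control, 2 without low 1), and the tiles called to between 0 and 1 for low and high against control without control 2. Members called for high against low ran from 0 to 1 (Abca1, 1.024 without low 2). Small differences changed sign in the same way: for low against control Srebf1 (-0.167 to 0.0072), Srebf2 (-0.056 to 0.047), Fasn (-0.082 to 0.091), Tm7sf2 (-0.062 to 0.248) and Sqle (-0.082 to 0.081); for high against control Srebf1 (-0.127 to 0.047), Srebf2 (-0.051 to 0.013), Sqle (-0.129 to 0.034), Insig1 (-0.095 to 0.130) and Abca1 (-0.126 to 0.378); for high against low Sqle (-0.101 to 0.0071), Srebf1 (-0.044 to 0.124), Srebf2 (-0.066 to 0.037), Elovl6 (-0.252 to 0.020), Fdft1 (-0.124 to 0.026), Stard4 (-0.219 to 0.052), Hmgcs1 (-0.014 to 0.157) and Insig1 (-0.045 to 0.180). The cause of these shifts was not tested. The Fasn tile kept its sign, at 7.90 to 11.6 points against control. Where an arm kept 1 library, it was assumed to vary like the others. The edgeR and DESeq2 fits and the coverage minimum were not run, because the files hold neither counts nor coverage.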
